A study of Mus musculus with 4 samples.

Results

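Sparc and the structural genes of the basement membrane were followed in mouse embryonic stem cell lines labelled as knockout or conditional knockout for UTX. UTX is the histone H3 lysine 27 demethylase encoded by the X-linked gene Kdm6a. The genes were Sparc, the collagen IV genes Col4a1 and Col4a2, the laminin genes Lama1, Lama5, Lamb1 and Lamc1, the nidogen genes Nid1 and Nid2, and Hspg2, which encodes perlecan. They were chosen by name, and every probe set of the array annotated to 1 of them and to no other gene was taken, which gave 22 probe sets for 10 genes among 34958 such probe sets for 18194 genes. In build GRCm38.p6 Sparc lies on chromosome 11, Col4a1 and Col4a2 on chromosome 8, Lama1 on 17, Lama5 on 2, Lamb1 on 12, Lamc1 on 1, Nid1 on 13, Nid2 on 14 and Hspg2 on 4.

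The series held 2 UTX knockout (KO) embryonic stem cell lines, KO lines 1 and 2, and, as their control, 2 UTX conditional knockout (cKO) lines, cKO lines 1 and 2. Total RNA of each line was hybridised to 1 Affymetrix Mouse Genome 430 2.0 array, so each group has n = 2. All 4 lines were grown on irradiated embryonic fibroblast feeders in medium with serum and LIF and were then passaged on gelatin to clear the feeders. The structure of the alleles, the way in which the KO lines were made and whether the cKO allele had been recombined are not given in the sources used here, nor is it stated that RNA came from separate cultures. The p-values therefore cover the differences among these 4 samples alone, and some of that spread may be technical.

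A basement membrane is a thin sheet of extracellular matrix under epithelia and around several other cell types. Laminins, trimers of 1 alpha, 1 beta and 1 gamma chain, assemble at the cell surface. Collagen IV forms a second, covalently linked network, and nidogens and the heparan sulphate proteoglycan perlecan connect both. The main collagen IV molecule joins chains from Col4a1 and Col4a2, while laminin-111 joins those of Lama1, Lamb1 and Lamc1 and laminin-511 those of Lama5, Lamb1 and Lamc1. Sparc encodes a secreted calcium-binding glycoprotein, also called osteonectin or BM-40, which binds collagens including collagen IV. Embryonic stem cells and the endoderm that forms from them make these proteins, and parietal endoderm is known for making them in large amounts.

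Sparc fell most among these genes, Col4a1 and Lamb1 fell, and Lama1 rose in the KO lines. The other 6 genes did not pass the test, among them Col4a2, whose signals nevertheless lay lower in both KO lines. The laminin alpha 1 and beta 1 genes thus passed in opposite directions. The calls of Col4a1, Lamb1 and Lama1 lay near the threshold given below (limma adjusted p = 0.0478, 0.0481 and 0.0427). They ended under several other ways of processing, while the gene call of Sparc held under every alternative. Signals are MAS5 intensities on a linear scale, tests were made with limma on log2(signal + 4.79), and the threshold for a call was an adjusted p under 0.05 over the 10916 genes tested. All 10 genes were bright enough to be tested and 4 were called, 3 lower and 1 higher, where 2.21% of all tested genes were called, 1.57% lower and 0.641% higher. The genes had been chosen with earlier results of these data known, so this count describes them and is not independent evidence.

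The promoters of the genes at the centre of this pattern are shown first, because Col4a1 and Col4a2 start beside each other on opposite strands and had differences of the same size, and because Sparc had the smallest p-value. The RefSeq promoter table of build GRCm38.p6 held windows for 7 of the 10 genes, each with 250 bases before and 50 bases after an annotated start. The Col4a1 window is chr8:11312777-11313076 on the minus strand, the Col4a2 window chr8:11312555-11312854 on the plus strand and the Sparc window chr11:55420031-55420330 on the minus strand. Capitals in the collagen IV windows mark the 78 bases that both share, chr8:11312777-11312854, read on opposite strands. Capitals in the Sparc window mark the 50 bases from the start onwards. Each is written 5′ to 3′ on the strand of its gene.
Col4a1: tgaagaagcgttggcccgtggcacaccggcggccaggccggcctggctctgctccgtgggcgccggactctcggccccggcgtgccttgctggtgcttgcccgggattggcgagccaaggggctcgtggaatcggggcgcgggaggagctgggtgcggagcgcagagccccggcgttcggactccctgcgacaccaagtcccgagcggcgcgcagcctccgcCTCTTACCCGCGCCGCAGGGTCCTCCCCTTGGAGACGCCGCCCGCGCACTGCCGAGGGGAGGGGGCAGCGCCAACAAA
Col4a2: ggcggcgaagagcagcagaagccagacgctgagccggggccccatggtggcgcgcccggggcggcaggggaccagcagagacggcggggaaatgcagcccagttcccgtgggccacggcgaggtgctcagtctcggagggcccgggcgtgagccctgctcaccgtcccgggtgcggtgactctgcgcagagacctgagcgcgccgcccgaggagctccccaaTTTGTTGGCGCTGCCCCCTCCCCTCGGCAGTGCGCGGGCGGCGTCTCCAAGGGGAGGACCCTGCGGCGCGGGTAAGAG
Sparc: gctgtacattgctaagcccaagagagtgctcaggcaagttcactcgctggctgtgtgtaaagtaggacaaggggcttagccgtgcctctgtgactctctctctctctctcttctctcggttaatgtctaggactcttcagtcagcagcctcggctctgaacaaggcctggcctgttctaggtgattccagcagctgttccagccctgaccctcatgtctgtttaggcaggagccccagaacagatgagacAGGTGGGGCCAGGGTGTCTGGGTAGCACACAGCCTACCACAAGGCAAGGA

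The annotated starts of Col4a1 and Col4a2 used for these windows are 21 bases apart and lie on opposite strands. The Col4a2 start has the lower coordinate and is read upwards, so each transcript first crosses the other's start and the 2 overlap at their 5′ ends. Among the 7 windows the share of G and C was 74.0% for Col4a1, 73.7% for Col4a2, 72.7% for Lama5, 70.3% for Hspg2, 64.7% for Nid1, 63.7% for Lamb1 and 55.3% for Sparc, against a median of 52.7% over 32851 windows. A high share was thus found in genes that fell and in genes that did not pass. Motifs were searched on both strands as the letters TATAAA, as the letters CCAAT and as the letters GGGCGG, and none of these contains another. CCAAT occurred 1 time in each collagen IV window and GGGCGG 1 time in that of Col4a1 and 3 times in that of Col4a2, while the Sparc window held none of the 3 motifs. GGGCGG occurred 5 times in the window of Hspg2, 4 times in that of Lama5, 2 times in that of Lamb1 and 1 time in that of Nid1, and CCAAT 1 time in those of Lamb1 and Nid1. TATAAA occurred in none of the 7. Over all windows 37.4% held CCAAT, 35.7% GGGCGG and 13.6% TATAAA. These matches describe the letters of the windows and say nothing about factors bound there.

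Kdm6a, the targeted gene, read 265 and 198 in KO lines 1 and 2, against 658 and 415 in cKO lines 1 and 2 at its brightest probe set (log2 fold change -1.17, SE 0.27, limma adjusted p = 0.088). It was called with median centring (-1.19, adjusted p = 0.0284), when KO line 1 was left out (-1.38, adjusted p = 0.00916) and when cKO line 2 was left out (-1.50, adjusted p = 0.0157). With its probe sets averaged, 2 of which were too dim to be tested, it stood at -0.57 (adjusted p = 0.522). The position of the probes relative to the deleted part was not used here, so this does not fully check the labels. RNA quality was alike on the 4 arrays, where the 3'/5' ratio of the control probe sets was 0.795 to 0.838 for Gapdh and 1.12 to 1.18 for Actb. The median signal went with the line number, at 81.6 and 64.9 in KO lines 1 and 2 and 76.6 and 64.4 in cKO lines 1 and 2.

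All 10 markers of embryonic stem cells were bright in both groups and none was called by limma, but 4 had an unadjusted p under 0.05, each with both KO values above both cKO values. The median of the list was 0.23, and 7 of the 10 log2 fold changes were positive. The 4 were the transcription factor genes Esrrb (0.94, adjusted p = 0.115), Klf4 (0.89, adjusted p = 0.129), Zfp42 (0.51, adjusted p = 0.102) and Sox2 (0.37, adjusted p = 0.1). Pou5f1, which encodes OCT4, read 10504 and 10179 in KO lines 1 and 2, against 10354 and 11273 in cKO lines 1 and 2, so its groups overlapped. Over all tested genes 13.8% had an unadjusted p under 0.05, and for 21.4% both KO values lay above both cKO values. The part of these markers in the results was not tested.

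Sparc read 2313 and 2478 in KO lines 1 and 2, against 7756 and 7523 in cKO lines 1 and 2. Both KO lines lay at about the same level, far under both cKO lines, and the spread within each group was small beside the gap. The mean was 2396 ± 116 in KO and 7639 ± 165 in cKO (SD, n = 2 each), so the cKO mean was 3.19 times the KO mean. The log2 fold change was -1.67 (SE 0.12, limma adjusted p = 0.00435). Of the 10916 genes Sparc had the smallest p-value of this fit (rank 1, unadjusted p = 1.48e-06). With 1 array left out the value ran from -1.72 to -1.62, and the call held each time, with adjusted p between 2.66e-05 and 0.000655.

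A second probe set of Sparc showed the same fall, at 1615 and 1305 in KO lines 1 and 2, against 5227 and 4780 in cKO lines 1 and 2. In the fit of all 20975 tested probe sets, where 1.22% were called, its log2 fold change was -1.78 (SE 0.15, adjusted p = 0.00481). The third Sparc probe set was dim, at 70.6 and 80.2 in KO lines 1 and 2, against 87.1 and 61.1 in cKO lines 1 and 2, and showed no such difference (log2 fold change 0.04, SE 0.35, adjusted p = 0.987). Its signals lay close to the level of 53.8 under which probe sets were left out, and averaging it in brought the log2 fold change of Sparc to -1.14 (adjusted p = 0.0207).

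**Figure D1:**
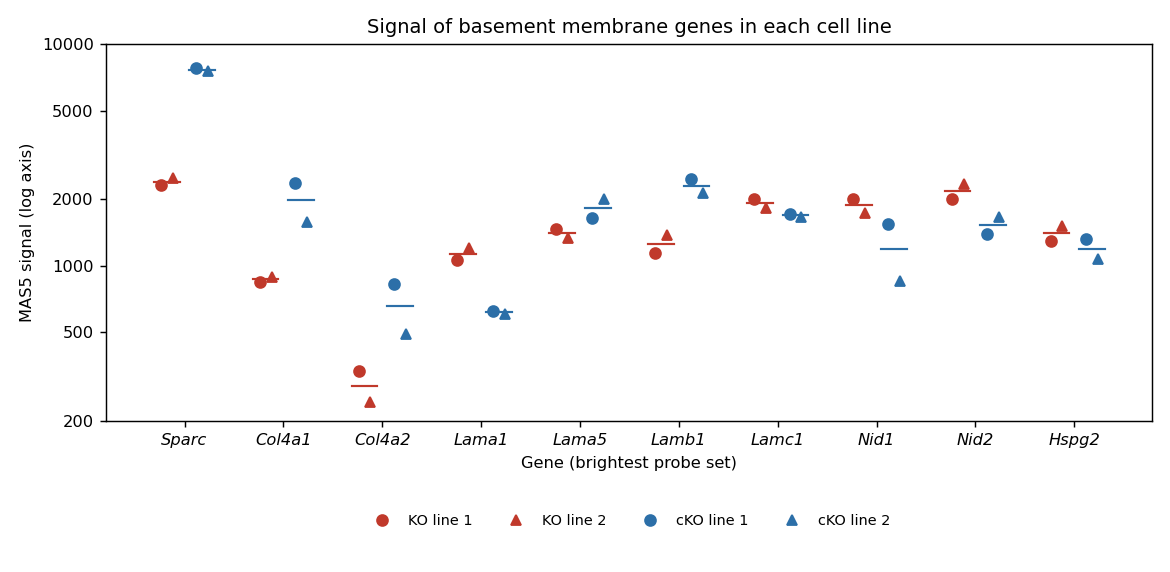
MAS5 signal (log axis) of the brightest probe set of each of the 10 genes in KO lines (red) and cKO lines (blue), with line 1 as circles, line 2 as triangles and group means as bars. Sparc shows the widest gap, with KO lines at 2313 and 2478 and cKO lines at 7756 and 7523, while the Lama1, Lamc1, Nid1 and Nid2 points of KO lie above those of cKO.

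Col4a1, the gene of the collagen IV alpha 1 chain, read 848 and 892 in KO lines 1 and 2, against 2373 and 1568 in cKO lines 1 and 2. The KO lines were close together and the cKO lines apart from each other, with cKO line 1 the highest, and the groups did not overlap. Its log2 fold change was -1.15 (SE 0.21, adjusted p = 0.0478), a call near the threshold. It ended when cKO line 1 was left out (-0.85, adjusted p = 0.0907). It also ended when both probe sets were averaged (-0.95, adjusted p = 0.15), without the filter (adjusted p = 0.0703), under quantile normalization (adjusted p = 0.0516) and under eBayes with no trend (adjusted p = 0.118). A second Col4a1 probe set read 175 and 159 in KO lines 1 and 2, against 376 and 217 in cKO lines 1 and 2, with a log2 fold change of -0.76 (adjusted p = 0.38).

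Col4a2, the gene of the alpha 2 chain, read 334 and 242 in KO lines 1 and 2, against 827 and 492 in cKO lines 1 and 2. Here too both KO values lay under both cKO values and cKO line 1 was the highest. The log2 fold change of -1.15 (SE 0.28) was of the same size as that of Col4a1, but its error was larger and it did not pass (adjusted p = 0.109). It was called when each array was centred on its median (-1.17, adjusted p = 0.0352). Leaving out KO line 1 gave -1.38 (adjusted p = 0.00948), leaving out cKO line 2 gave -1.52 (adjusted p = 0.0116) and leaving out cKO line 1 gave -0.78 (adjusted p = 0.265). Between the cKO lines, line 1 minus line 2 was 0.60 for Col4a1 and 0.74 for Col4a2 on the log2 scale, and the KO lines differed by -0.07 and 0.46 in the same order.

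The laminin genes divided. Lamb1, the beta 1 chain found in both laminin-111 and laminin-511, read 1140 and 1371 in KO lines 1 and 2, against 2452 and 2132 in cKO lines 1 and 2. Both KO lines were clearly the lower, and KO minus cKO was -0.87 on the log2 scale (SE 0.16, adjusted p = 0.0481). The call ended when KO line 1 (-0.74, adjusted p = 0.0803) or cKO line 1 (-0.77, adjusted p = 0.127) was left out. It also ended under median centring (-0.88, adjusted p = 0.125), quantile normalization (adjusted p = 0.0511), no filter (adjusted p = 0.0605), eBayes with no trend (adjusted p = 0.112) and averaging of probe sets (-0.75, adjusted p = 0.197). This probe set is of the kind marked _s_at, which may detect more than 1 transcript. The other 2 tested Lamb1 probe sets had log2 fold changes of -1.001 (adjusted p = 0.0969) and -0.66 (adjusted p = 0.454), and the fourth was too dim to be tested.

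Lama1, the alpha 1 chain of laminin-111, read 1063 and 1202 in KO lines 1 and 2, against 626 and 606 in cKO lines 1 and 2. The cKO lines were nearly equal and both KO lines were higher. The mean was 1133 ± 98.4 in KO and 616 ± 14.4 in cKO (SD, n = 2 each), or 1.84 times as high in KO, which on the log2 scale was a difference of 0.87 (SE 0.16, adjusted p = 0.0427). It had 1 probe set, and the value stayed between 0.78 and 0.96 under every alternative. The call ended when KO line 2 (adjusted p = 0.102), cKO line 1 (0.0791) or cKO line 2 (0.105) was left out. It also ended under median centring (adjusted p = 0.112), no filter (0.0603), eBayes with no trend (0.0854) and averaging of probe sets (0.0512).

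Lamc1, the gamma 1 chain that both laminins share, read 1991 and 1829 in KO lines 1 and 2, against 1717 and 1655 in cKO lines 1 and 2. The KO values lay a little above the cKO values, by 0.18 on the log2 scale (SE 0.14, adjusted p = 0.68). Its second probe set had a highest value of 75.5 and was not tested. Lama5, the alpha 5 chain of laminin-511, read 1466 and 1329 in KO lines 1 and 2, against 1643 and 2009 in cKO lines 1 and 2 (log2 fold change -0.38, SE 0.16, adjusted p = 0.369). A second tested Lama5 probe set gave -0.34 (adjusted p = 0.561), so both lay lower in KO without passing.

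The linker genes lay on the higher side in KO without passing. Nid1, which encodes nidogen-1, read 2003 and 1735 in KO lines 1 and 2, against 1535 and 851 in cKO lines 1 and 2. The cKO lines lay 0.85 apart on the log2 scale, more than the log2 fold change of 0.70 (SE 0.27, adjusted p = 0.303). Leaving out cKO line 1 gave 1.13 (adjusted p = 0.0193) and leaving out cKO line 2 gave 0.28 (adjusted p = 0.874). Nid2, for nidogen-2, read 2001 and 2335 in KO lines 1 and 2, against 1394 and 1663 in cKO lines 1 and 2, so that here line 2 was the higher in each group (log2 fold change 0.50, SE 0.16, adjusted p = 0.218). Hspg2 read 1287 and 1518 in KO lines 1 and 2, against 1318 and 1073 in cKO lines 1 and 2. Its groups overlapped, and its 2 probe sets gave log2 fold changes of 0.23 (adjusted p = 0.737) and 0.21 (adjusted p = 0.85).

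**Figure D2:**
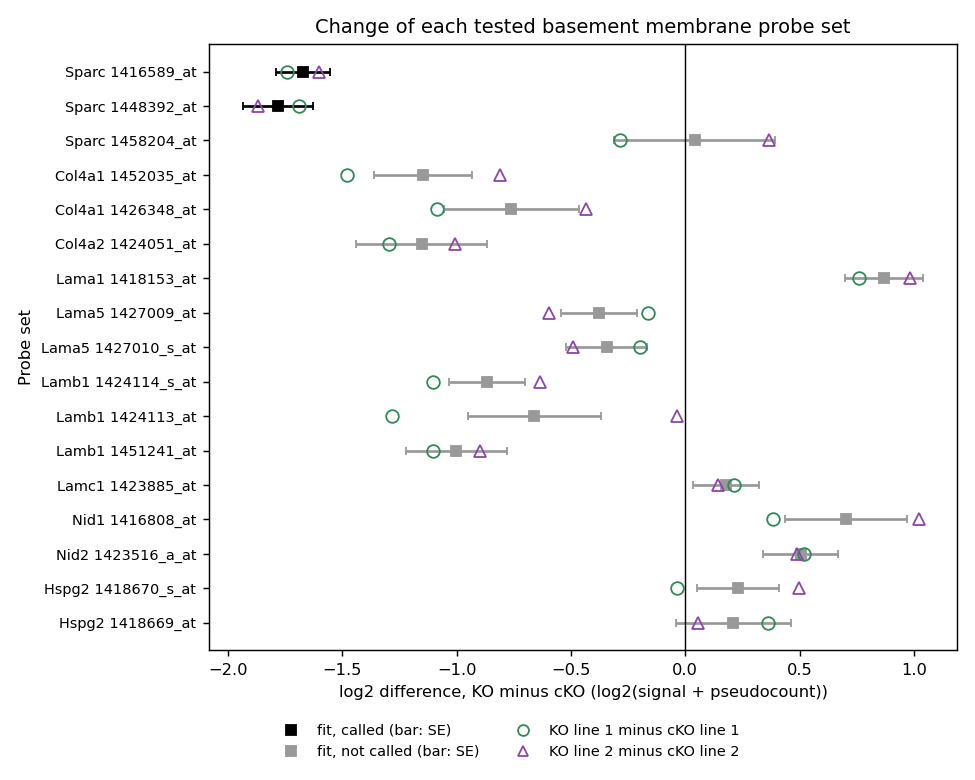
Log2 difference of KO minus cKO for the 17 tested probe sets of the 10 genes. Squares give the fit with its SE (black where the adjusted p was under 0.05), open circles KO line 1 minus cKO line 1 and open triangles KO line 2 minus cKO line 2. The called probe sets are both of Sparc, at -1.67 and -1.78, and every Col4a1, Col4a2 and Lamb1 probe set lies left of zero.

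Across the 10 genes, the median log2 fold change was -0.10 and the median without regard to sign 0.79, against 0.01 and 0.17 over all tested genes. The KO values lay below both cKO values for 5 of the 10 genes and above both for 4, where groups did not overlap for 42.6% of all tested genes (21.2% with KO below and 21.4% with KO above). Of the 22 probe sets 17 were tested, and the highest value of the 5 left out was 77.1. Among the 17, groups did not overlap for 14, 10 with KO below and 4 with KO above, where the share over all tested probe sets was 40.1%, and 2 were called, both of Sparc. Where groups do not overlap, the differences between lines of the same number must share 1 sign. That they did so for 9 of the 10 genes, all but Hspg2, therefore adds nothing to the count above. Line 1 read above line 2 for 8 of the 10 genes in the cKO group and for 4 of 10 in the KO group, where 53.0% of all tested genes did so in KO and 50.6% in cKO.

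**Figure D3:**
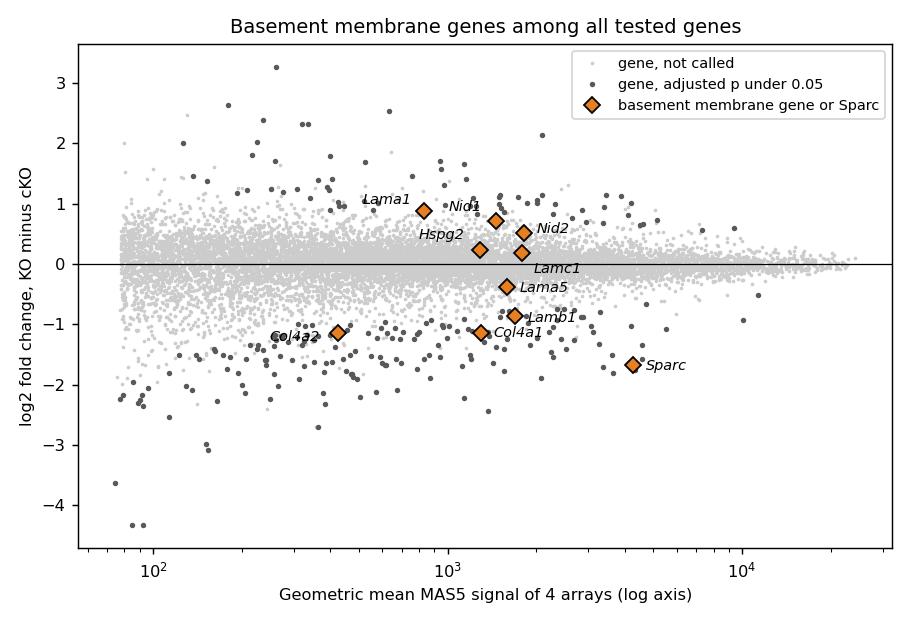
Log2 fold change of KO minus cKO against the geometric mean MAS5 signal of the 4 arrays (log axis) for the 10916 tested genes, with called genes in dark grey and the 10 genes as orange diamonds. Sparc lies at -1.67 among the brighter genes, Col4a1, Col4a2 and Lamb1 lie between -1.15 and -0.87, and Lama1 lies highest of the 10 at 0.87.

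The 4 genes whose centred log2 values over the 4 arrays lay nearest to those of Sparc by Euclidean distance, outside the 10, were Setd7, Plekha2, Flnc and Epha1. Setd7, a lysine methyltransferase gene, was nearest, at a distance of 0.07, and read 343 and 344 in KO lines 1 and 2, against 1132 and 1087 in cKO lines 1 and 2. The distances were 0.10 for Plekha2, a pleckstrin homology domain gene, 0.13 for Flnc, which encodes the actin cross-linker filamin C, and 0.14 for Epha1, an ephrin receptor. These distances hold for the brightest probe set of each gene. For Flnc that probe set stood at a log2 fold change of -1.58 and another tested one at -2.67. For Plekha2 the brightest stood at -1.65 and other tested ones at -1.17 and -0.51. Of the 9 other basement membrane genes Col4a1 came nearest to Sparc, at 0.66, followed by Col4a2 and Lamb1 at 0.82 each, and Lama1 was the farthest at 2.54. With 4 arrays in 2 groups this measure mostly compares the size of the difference between groups.

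Further chains of the same families were mostly not measurable. Of 7 other laminin genes 6 had a probe set and 1 was bright enough to be tested, Lamb2 (beta 2 chain), which read 199 and 286 in KO lines 1 and 2, against 180 and 192 in cKO lines 1 and 2 (log2 fold change 0.35, adjusted p = 0.635). Lama2, Lama3, Lama4, Lamb3 and Lamc3 were too dim to be tested, with 87.9 as their highest value. None of the 4 other collagen IV genes, Col4a3, Col4a4, Col4a5 and Col4a6, was bright enough to be tested, and the highest single value among them was 166, for Col4a5 in cKO line 1.

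Among 16 further basement membrane genes, 9 were tested, 2 fell, 1 rose and 6 did not pass, with a median log2 fold change of -0.69 against 0.01 over all genes. Of all tested genes 1.57% were called lower and 0.641% higher. Pxdn, the gene of peroxidasin, which forms sulfilimine cross-links in collagen IV, read 515 and 507 in KO lines 1 and 2, against 1576 and 1358 in cKO lines 1 and 2 (log2 fold change -1.51, SE 0.16, adjusted p = 0.0111). The KO lines were nearly equal and both cKO lines far higher. Tinagl1, a matricellular protein gene, read 139 and 137 in KO lines 1 and 2, against 543 and 335 in cKO lines 1 and 2 (-1.59, adjusted p = 0.0339), and its call ended when cKO line 1 was left out (-1.25, adjusted p = 0.0899), without the filter (0.0779) and under eBayes with no trend (0.0772). Frem2, of the Fraser complex that anchors epithelia to the dermis, was the gene that rose, at 470 and 484 in KO lines 1 and 2, against 213 and 188 in cKO lines 1 and 2 (1.23, adjusted p = 0.0257), and lost its call without the filter (adjusted p = 0.0603). The proteoglycan gene Agrn stood at -0.69 on the log2 scale (adjusted p = 0.0685). Col18a1, the brightest of the list, read 7132 and 6877 in KO lines 1 and 2, against 6956 and 6420 in cKO lines 1 and 2. Its groups overlapped (0.07, adjusted p = 0.858), as did those of Fbln1 (-0.10, adjusted p = 0.931). Of the 9 log2 fold changes 7 were negative and 2 positive.

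Of 16 genes for the modification, folding and cross-linking of collagens, 13 were tested, 1 fell and 12 did not pass, and the median was -0.22. By comparison 1.57% of all tested genes were called lower. The one that fell was Serpinh1, which encodes the collagen chaperone HSP47. It read 766 and 632 in KO lines 1 and 2, against 2697 and 1613 in cKO lines 1 and 2, with cKO line 1 the highest (log2 fold change -1.58, SE 0.25, adjusted p = 0.0296). Its second probe set gave -1.64 (adjusted p = 0.0267). The prolyl 4-hydroxylase alpha subunit genes P4ha1 and P4ha2 had log2 fold changes of -0.36 (adjusted p = 0.554) and -0.71 (adjusted p = 0.168), and the lysyl oxidase gene Lox -0.78 (adjusted p = 0.107).

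Receptors for basement membrane proteins were tested for 12 of 14 genes, of which 1 fell and 11 did not pass, with a median of -0.25. The share of all tested genes called lower was 1.57%. Their log2 fold changes were negative for 8 and positive for 4, with Sdc2 the highest at 0.53 (adjusted p = 0.3). Itga3, the integrin alpha 3 subunit of a laminin receptor, read 1292 and 1104 in KO lines 1 and 2, against 3231 and 2873 in cKO lines 1 and 2 (log2 fold change -1.35, SE 0.15, adjusted p = 0.0121). Its other 2 probe sets gave -1.63 (adjusted p = 0.0178) and -1.16 (adjusted p = 0.143). Ddr1, a collagen receptor kinase, stood at -0.94 (adjusted p = 0.0578) and the integrin gene Itgb1 at -0.60 (adjusted p = 0.148), while Dag1 (dystroglycan) and Itga6 stood at -0.24 and -0.26 (adjusted p = 0.621 and 0.392). Of 12 matrix-remodelling genes 8 were tested and none was called by limma, with a median of -0.33. Of the 8 log2 fold changes 6 were negative and 2 positive. An unadjusted p under 0.05 was found for 4, where 13.8% of all tested genes had one. Among these 4, Htra1 lay higher in KO (0.61, adjusted p = 0.354). Timp2, which encodes a metalloproteinase inhibitor, had the smallest p of the 8, at a log2 fold change of -0.97 (adjusted p = 0.0608). Leaving out 1 array gave -0.83 without KO line 1, -1.11 without KO line 2, -0.79 without cKO line 1 and -1.16 without cKO line 2. With its probe sets averaged, some too dim to be tested, Timp2 stood at -0.46 (adjusted p = 0.799). Of 7 genes related to Sparc by sequence 3 were tested and none was called by limma, with 1 at an unadjusted p under 0.05, and Fstl1, the nearest to passing, stood at -0.57 (adjusted p = 0.15).

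**Figure D4:**
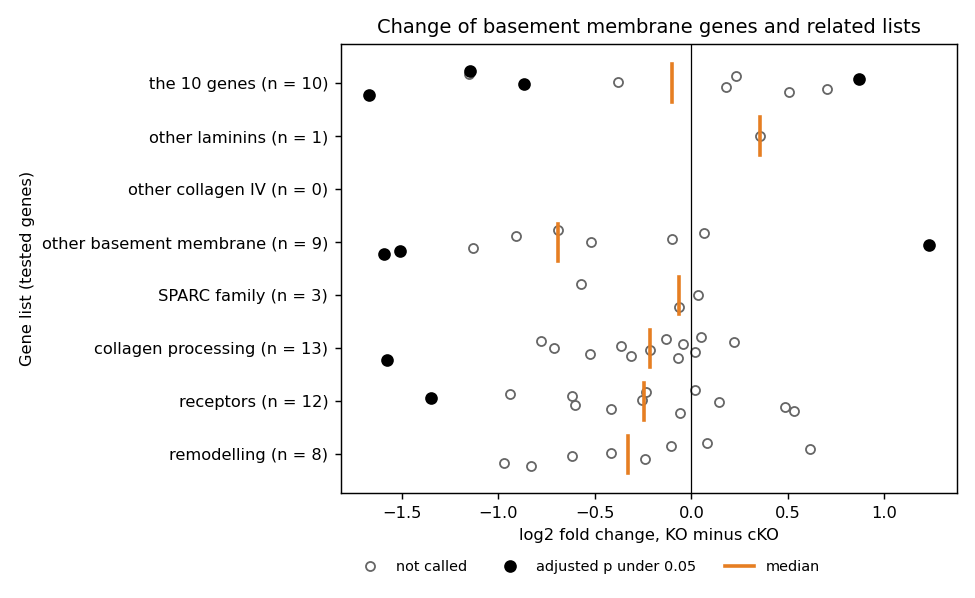
Log2 fold change of KO minus cKO for the tested genes of the 10 followed here and of 7 related lists, 1 point per gene, filled where the adjusted p was under 0.05, with the median of each list in orange. The 10 genes spread from -1.67 to 0.87, and the other called genes are Tinagl1, Pxdn and Frem2, Serpinh1 and Itga3.

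Markers of other cell types were measured beside these genes. Of 19 fibroblast genes, chosen because the lines had been kept on fibroblast feeders, 18 had a probe set and 12 were tested. All 12 had negative log2 fold changes, with a median of -1.01 against 0.01 over all tested genes, and this was the lowest median among the lists examined. In 10 of the 12 both KO values lay below both cKO values, against 21.2% of all tested genes. An unadjusted p under 0.05 was found for 9, against 13.8% of all tested genes. The summed signal of the list was 8416 and 9447 in KO lines 1 and 2, against 23692 and 16368 in cKO lines 1 and 2. Both KO lines were the lower and cKO line 1 the highest. Most of each sum came from Acta2 and Tagln, whose values are given below, so it says little about the dimmer genes of the list.

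Among the fibroblast genes 3 passed and fell, Tagln (log2 fold change -1.76, adjusted p = 0.00553), Col5a1 (-1.43, adjusted p = 0.0293) and Thy1 (-1.20, adjusted p = 0.0481). The share called lower among all tested genes was 1.57%. Tagln, which encodes the actin-binding protein transgelin, read 2230 and 2469 in KO lines 1 and 2, against 8938 and 7092 in cKO lines 1 and 2. The call of Col5a1 ended when cKO line 1 was left out (-1.22, adjusted p = 0.0939), and also without the filter (0.0733), under eBayes with no trend (0.0624) and under averaging of probe sets (0.0563). That of Thy1 ended when KO line 2 (-1.03, adjusted p = 0.0561) or cKO line 2 (-1.04, adjusted p = 0.163) was left out, and also without the filter (0.112), under eBayes with no trend (0.0821) and under averaging of probe sets (0.0566).

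Acta2, the smooth muscle actin gene that activated fibroblasts also use, was the brightest of the list and did not pass, at 4163 and 4809 in KO lines 1 and 2, against 10141 and 6210 in cKO lines 1 and 2 (log2 fold change -0.83, adjusted p = 0.135). The fibrillar collagen gene Col1a1 read 146 and 171 in KO lines 1 and 2, against 618 and 246 in cKO lines 1 and 2. Col3a1 read 67.8 and 67.0 in KO lines 1 and 2, against 299 and 145 in cKO lines 1 and 2. In all 3 genes both KO values lay lower and cKO line 1 was the highest. Of the 6 members too dim to be tested, Fap and Lum were the dimmest, with 44.4 as their highest value. Among the 6, Prrx1 lay higher in KO, at 60.1 and 53.8 in KO lines 1 and 2, against 30.7 and 31.0 in cKO lines 1 and 2. The groups of Twist1, Pdgfrb and Lum overlapped, and Col6a1 and Fap lay lower in both KO lines. The part of the fibroblast list in the differences of Sparc and the other basement membrane genes was not tested.

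Of 16 markers of primitive and parietal endoderm 15 had a probe set and 4 were tested, none of which was called by limma. Among the 4, Dab2 and Amn were negative with an unadjusted p under 0.05, which 13.8% of all tested genes had. The other 2, Thbd and Pth1r, were slightly positive, at 0.14 and 0.08 (adjusted p = 0.936 and 0.96). The summed signal was 1277 and 806 in KO lines 1 and 2, against 2137 and 1566 in cKO lines 1 and 2. Most of the gap between the groups in this sum came from Dab2, Cubn and Amn, so it says little about the other genes of the list. The defining transcription factor genes Gata4, Gata6, Sox7 and Sox17 were too dim to be tested, with Gata6 at 90.2 and 35.4 in KO lines 1 and 2, against 125 and 76.9 in cKO lines 1 and 2. Dab2 read 222 and 169 in KO lines 1 and 2, against 618 and 399 in cKO lines 1 and 2 (log2 fold change -1.34, adjusted p = 0.0573). It was called under quantile normalization (adjusted p = 0.0392) and median centring (0.0145). It was not called without the filter (0.117), under eBayes with no trend (0.114) or with its probe sets averaged (-1.04, adjusted p = 0.408). That mean takes in probe sets too dim to be tested. Leaving out 1 array gave -1.53 without KO line 1, -1.14 without KO line 2, -1.02 without cKO line 1 and -1.65 without cKO line 2. Cubn, which encodes the endocytic receptor cubilin and was left out by the filter, read 64.9 and 3.21 in KO lines 1 and 2, against 269 and 214 in cKO lines 1 and 2. Stra6, also left out by the filter, went the other way. It read 63.3 and 47.2 in KO lines 1 and 2, against 12.1 and 35.6 in cKO lines 1 and 2. The part of this list in the result was not tested. In RNA from whole cultures, fewer cells of a type and less RNA per cell cannot be told apart.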

How the data were processed

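Total RNA of 4 mouse embryonic stem cell lines was measured on 1 Affymetrix Mouse Genome 430 2.0 array each. The authors deposited 1 linear intensity per probe set and array, a MAS5 signal per the submitters' processing notes, whose version and settings are not stated there. The mean after trimming 2% at each end was 500.0 on every array. Detection calls were not used here, and with 2 arrays per group the number of arrays limits the precision.

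Of 45101 probe sets, 34958 named 1 gene in the platform's annotation, and 34754 of these took a current symbol through the Entrez identifier in the RefSeq gene table (GRCm38.p6). A gene stood by its probe set of highest mean log2 value. The lower 40% of genes by that mean (7278 of 18194, below a signal of 77.7) were left out, and likewise of probe sets in a second fit (below 53.8). No further scaling was applied, and signals were converted to log2(signal + 4.79), 4.79 being the 10th percentile of all values, so changes of dim genes are understated. KO was compared with cKO in R 4.3.3 with limma 3.58.1 (lmFit, then eBayes letting the variance follow the signal, on 2 residual and 5.15 prior degrees of freedom), adjusted by Benjamini-Hochberg over all features tested. In limma 241 genes were called, 70 higher and 171 lower. Python 3.11.15 with pandas 2.3.3 and matplotlib 3.10.9 made the summaries and plots.

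On 20 simulated sets of 10916 genes with 200 changed, made for KO against cKO, the procedure recovered 41.2% of 2-fold and 87.1% of 4-fold changes, and 5.00% of its calls were unchanged genes. The simulated noise was independent between arrays, with variances drawn from the fitted model. It left out the deviation that lines of the same number share, so the share of false calls in the real data was not measured.

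The 10 genes and the lists were chosen with earlier results of these data known. Named are the 10 genes, Kdm6a, up to 4 called genes of each related list by size of change or the gene of smallest p where none was called, all measured laminin and collagen IV genes, and the 4 genes nearest to Sparc. A few other list members and markers were picked as examples with their values in view. Alternatives were another pseudocount, filter or normalization, averaged probe sets per gene, the line number as a block, eBayes with no trend, and fits without 1 array, where a lone line was assumed to vary like the other group.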

Additional observations from a re-analysis of the deposited data

How the results depend on the processing

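On the gene level the direction of all 10 genes held under every alternative, except that Lamc1 was at -0.43 with the mean of its probe sets, which takes in a probe set too dim to be tested. Dim or variable probe sets also turned, the second of Hspg2, which ran from -0.13 without KO line 1 to 0.55 without KO line 2, and the dim probe set of Sparc, which ran from -0.20 without cKO line 2 and -0.05 without KO line 2 to 0.28 without cKO line 1. The count of called genes was 147 without a filter, 157 with the lower 60% left out, 28 without the variance trend and 129 with the mean of probe sets, and 228 to 434 with 1 array left out. Of the 10 genes, 4 were called as reported, 1 without a filter, 2 with quantile normalization, 1 without the variance trend, 1 with the mean of probe sets, and 2 to 4 with 1 array left out. Sparc was the gene called in each of these counts of 1. The count of called probe sets was 125 without a filter, 1 without the variance trend and 251 to 395 with 1 array left out, and in the last case 3 to 5 of them belonged to the 10 genes. Without the trend, which also ended the calls of Pxdn, Tinagl1, Frem2, Serpinh1, Itga3, Tagln, Col5a1, Thy1, Krt8 and Krt18 (adjusted p 0.0501 to 0.0925), limma called 0 of the 17 probe sets, with 9 at an unadjusted p under 0.05. The cause of these differences was not tested, beyond the number of features and samples that the filter and the left-out arrays change.

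The line numbers are shared by both groups but the labels do not pair the lines. Line 1 deviated from its group mean alike in KO and cKO (r = 0.52 over 10916 genes, which are not independent). With the line number as a replicate block 1048 genes and 1681 probe sets were called, among them 7 of the 10 genes (Col4a2, Nid1 and Nid2 joining Sparc, Col4a1, Lamb1 and Lama1) and 9 of the 17 probe sets. The block also gave calls for Kdm6a (adjusted p = 0.00809), Dab2 (0.00613), Timp2 (0.0231) and Fstl1 (0.0253).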

Other observations

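Of 8 trophoblast genes 5 were tested and 2 fell, the simple-epithelial keratin genes Krt8 and Krt18, where 1.57% of all tested genes were called lower. Krt8 read 2219 and 1708 in KO lines 1 and 2, against 8103 and 5791 in cKO lines 1 and 2 (log2 fold change -1.81, limma adjusted p = 0.0112), and Krt18 read 3147 and 2244 in KO lines 1 and 2, against 9272 and 6768 in cKO lines 1 and 2 (-1.57, adjusted p = 0.0189). Krt7, another keratin gene, did not pass and its groups overlapped (-0.62, adjusted p = 0.543). The transcription factor genes Tfap2c (0.79, adjusted p = 0.311) and Hand1 (0.30, adjusted p = 0.709) did not pass either, with both KO values above both cKO values. That order was found for 21.4% of all tested genes. Tfap2c read 2186 and 1412 in KO lines 1 and 2, against 1346 and 766 in cKO lines 1 and 2. Cdx2, Elf5 and Gata3 were too dim to be tested. Of 8 endothelial genes 4 were tested and none was called by limma. An unadjusted p under 0.05, which 13.8% of all tested genes had, was found for 1 (Flt1, -1.38, adjusted p = 0.218). Cdh5 and Tie1 were too dim to be tested, with 36.6 as their highest value.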
